A study of Rattus norvegicus with 13 samples.

Results

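The genes described here encode the proteins of the cytosolic ribosome. They were chosen by symbol from a table of RNA levels in the whole hypothalamus of 13 rats: Rps or Rpl followed by a number and, where present, a short suffix, together with Rpsa. With 1 row kept per symbol and a mean of at least 0.5 FPKM over all rats, 80 genes were members, of 11837 rows tested in the table. FPKM are fragments counted per length of transcript and per size of library, so that levels can be set side by side between genes. The 6 fructose rats ate a diet with 55% fructose and the 7 chow rats a standard chow with 0.30% fructose, both from postnatal day 25. An overnight fast and a challenge on day 79 came first. On postnatal day 80 every rat had an injection into the abdomen, either glucose at 2 g per kg or saline, and was killed 1 h later. Across the full cohort 31 rats were given glucose and 29 saline. The sources used here do not give the injection, strain or sex of the 13 sequenced rats. These were separate animals, caged as pairs whose members are not known. Read depth is unknown, and the listed FPKM of a rat summed to between 556902 and 608058 over 13156 to 13384 rows above 0.

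Each ribosome has a small subunit, which reads the mRNA, and a large subunit, which joins the amino acids. Their proteins, named Rps and Rpl, are needed in nearly equal numbers. In mammals their mRNAs start with a tract of pyrimidines, the 5' terminal oligopyrimidine or TOP tract, through which growth signalling by mTOR adjusts their translation as a group. A few members have a paralogue, a second gene for nearly the same protein. Because mammalian genomes hold many processed copies of these genes, and the sources used here do not say how reads were divided between copies, levels of single members are uncertain to that extent.

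The members fell into 3 kinds. The core consisted of 71 genes with 1 row each, 28 of the small and 43 of the large subunit. Paralogues set apart were 4, Rps27l, Rpl22l1, Rpl39l and Rps4y2. The last kind was 5 genes, Rps9, Rps19, Rpl7a, Rpl8 and Rplp2, whose symbol stood on 2 rows with a locus suffix. Those 5 reached at most 3.99 FPKM on average although the lowest core gene stood at 112.5 FPKM. Rps6, the small subunit protein that is phosphorylated after mTOR activation, also had 2 such rows and was listed at 0 in every rat. In the table as a whole, 655 of the 940 rows with a locus suffix were listed at 0 in all rats, and the median of their mean levels was 0, against 6.96 FPKM for the other rows. The levels of these 6 symbols are therefore given as listed values alone. The only other symbol that missed the minimum was Rpl3l, a paralogue of Rpl3 known from muscle, at 0.256 FPKM. Just inside the minimum lay Rpl8 at 0.862 FPKM and Rps19 at 0.931 FPKM.

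Runs of pyrimidines near the annotated start were more frequent in the matched members than in other promoters. Promoter sequences from RefSeq (build GRCr8, with 250 bases before and 50 after the annotated start) were matched by symbol for 64 of the 80 members, 57 of them core genes. In the 30 bases around the start, 15 on each side, 43 of the 64 members held an unbroken run of at least 8 C or T on the gene's own strand, which is 67.2%. The same held for 963 of the 8734 promoters of tested genes and for 3831 of all 33469 promoters in the table, or 11.4%. A run was counted anywhere in the window, so it need not begin at the first base of the mRNA as a TOP tract does. The annotated first base was C in 35 of the 64 (54.7%), against 30.7% of promoters of tested genes and 24.1% of all promoters. The windows below show some of the genes on which the results turn and 3 of the 5 paralogue pairs compared further on. Letters run 5' to 3' on the gene's strand, the annotated start is the 16th base, and capitals mark the longest run of C and T.
Rpl37a, GRCr8 chr9:81748076-81748105, plus strand: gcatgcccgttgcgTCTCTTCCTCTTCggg
Rplp1, GRCr8 chr8:71290858-71290887, minus strand: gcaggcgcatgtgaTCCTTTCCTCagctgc
Rpl19, GRCr8 chr10:83519049-83519078, plus strand: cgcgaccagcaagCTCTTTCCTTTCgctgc
Rps2, GRCr8 chr10:14251833-14251862, plus strand: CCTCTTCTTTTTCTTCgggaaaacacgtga
Rpl17, GRCr8 chr18:70856261-70856290, plus strand: tagccttcgcgCTTCCTCTTCCTgttagcg
Rpl39, GRCr8 chrX:121195882-121195911, minus strand: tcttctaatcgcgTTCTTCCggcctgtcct
Rps12, GRCr8 chr1:23500060-23500089, plus strand: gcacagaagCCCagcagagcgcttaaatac
Rps27, GRCr8 chr2:177964592-177964621, minus strand: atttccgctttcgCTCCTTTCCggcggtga
Rps27l, GRCr8 chr8:76443643-76443672, plus strand: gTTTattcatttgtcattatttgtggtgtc
Rpl22, GRCr8 chr5:168117946-168117975, plus strand: gtagtgcgCCCCCCTCCCTTTCTgcctcct
Rpl22l1, GRCr8 chr2:113683181-113683210, plus strand: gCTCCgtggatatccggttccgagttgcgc
Rps4x, GRCr8 chrX:71342907-71342936, minus strand: tccagcgcgcgcagCCTCCgaccctaattt
Rps4y2, GRCr8 chr4:183000898-183000927, plus strand: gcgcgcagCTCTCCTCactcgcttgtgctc

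Rps27 and Rpl22 showed runs of 9 and 15, whereas their paralogues Rps27l and Rpl22l1 showed runs of 3 and 4. The remaining pair printed went the other way, with a run of 5 in Rps4x and of 8 in its paralogue Rps4y2. The annotated start may differ from the start used in these rats, so a short run describes the annotated window alone. The word CTTCCG, the core of the site known for ETS factors, was found on either strand of the 300 bases in 35 of 64 members (54.7%), against 29.4% of promoters of tested genes and 16.6% of all promoters. The word GCCATCTT, known from YY1 sites, was found on either strand in 5 of 64 (7.81%), against 5.35% and 3.17%. Neither word contains the other. These matches are descriptions of letters and show no binding.

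Ribosomal protein mRNAs were among the abundant transcripts of these hypothalami. Core genes ranged 16.5-fold in mean level, between 112.5 and 1851 FPKM, with a median of 497 FPKM, and 57 of the 71 lay within 2-fold of that median. Small subunit genes had a median of 561 FPKM and large subunit genes 491 FPKM. The highest member was Rps29, a small zinc-binding protein of the small subunit, with 1578, 1891 and 2000 FPKM in fructose rats (lowest, median and highest) and 1741, 1886 and 1979 FPKM in chow rats. Next came Rpl37a of the large subunit at 1533, 1711 and 1817 FPKM in fructose rats and 1547, 1586 and 1938 FPKM in chow rats. The diets overlapped in both genes. For Rps29, 1 fructose rat lay above and 2 lay below every chow rat, and for Rpl37a 1 fructose rat lay below and 0 lay above. Rpl41, the shortest protein of the ribosome, averaged 1230 ± 108 FPKM on fructose and 1157 ± 76.3 FPKM on chow. The stalk protein Rplp1 averaged 1186 ± 51.1 FPKM on fructose and 1126 ± 80.6 FPKM on chow, and Rpl37 of the large subunit 1108 ± 110 FPKM on fructose and 1073 ± 73.4 FPKM on chow (SD, n = 6 fructose and 7 chow, as for the values below). At the low end of the core stood Rpl15, a large subunit protein, with 114 ± 6.22 FPKM on fructose and 111 ± 7.70 FPKM on chow. For very short transcripts, levels per length rest on an estimate of usable length that the sources used here do not describe. All members together took up 7.08 ± 0.386% of the summed FPKM of a fructose rat and 6.67 ± 0.346% of that of a chow rat, with 2 of 6 fructose rats above all chow rats.

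No member passed the test for a difference between the diets. By limma across all tested rows, 0 of 80 members passed an adjusted p under 0.05 in either direction, where 3.94% of all rows tested did, 1.66% higher and 2.27% lower on fructose. At an adjusted p under 0.1 stood 1 member, against 7.73% of all rows. At an unadjusted p under 0.05 by limma stood 4 members, all 4 higher on fructose and none lower. That is 5% of the members, against 19.2% of all rows, 8.59% higher and 10.6% lower. Of the 4, 3 were core genes and 1 was Rpl7a, whose symbol stood on 2 rows at low listed levels. The count of 4 depended on the setting and on single rats. It was 22 with quantile normalization, 10 with rats weighted by their fit, 17 once chow replicate 6 was left out and 11 once fructose replicate 1 was. It was 2 when either chow replicate 5 or fructose replicate 3 was left out. All these members were higher on fructose. Rows called at an adjusted p under 0.05 by limma also varied, from 466 in all rats. They were 427 with quantile normalization, 1019 with rats weighted, 435 without chow replicate 6 and 473 without fructose replicate 1. Without chow replicate 5 they were 187, and without fructose replicate 3 they were 337. The share of all rows at an unadjusted p under 0.05 is not given for these settings. The exact permutation test had 4 members at that level, against 18.8% of all rows, but not the same 4. Rps16 was among them (exact permutation p = 0.0233, limma p = 0.0581). Rpl39 was not (exact permutation p = 0.0659, limma p = 0.0412). After adjustment the permutation test called 0 members and 0% of all rows. In 0 of 80 members did the 6 fructose and 7 chow rats fail to overlap, against 1.61% of all rows. In bulk tissue, fewer cells of a type and less RNA per cell cannot be told apart, so a level here is a property of the whole dissected piece.

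Most members nevertheless lay slightly to the same side. The log2 fold change, fructose over chow on the log2(FPKM + 0.5) scale, was above 0 for 73 of the 80 members and 66 of the 71 core genes, against 50.3% of all rows tested. It was above 0 for 4 of the 5 genes on 2 rows and for 3 of the 4 paralogues. The median was 0.061 over the members and 0.00085 over all rows tested. These fold changes are not 80 separate observations, since the members moved together from rat to rat, as described further on. The median was 0.031 without fructose replicate 2, 0.097 without chow replicate 6 and 0.092 without fructose replicate 1. Core genes had a median SE of 0.066, and the 95% intervals of 70 of the 71 lay inside ±0.5 on the log2 scale, of 58 inside ±0.25. The exception was Rpl30, whose interval ran from -0.03 to 0.65.

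**Figure D1:**
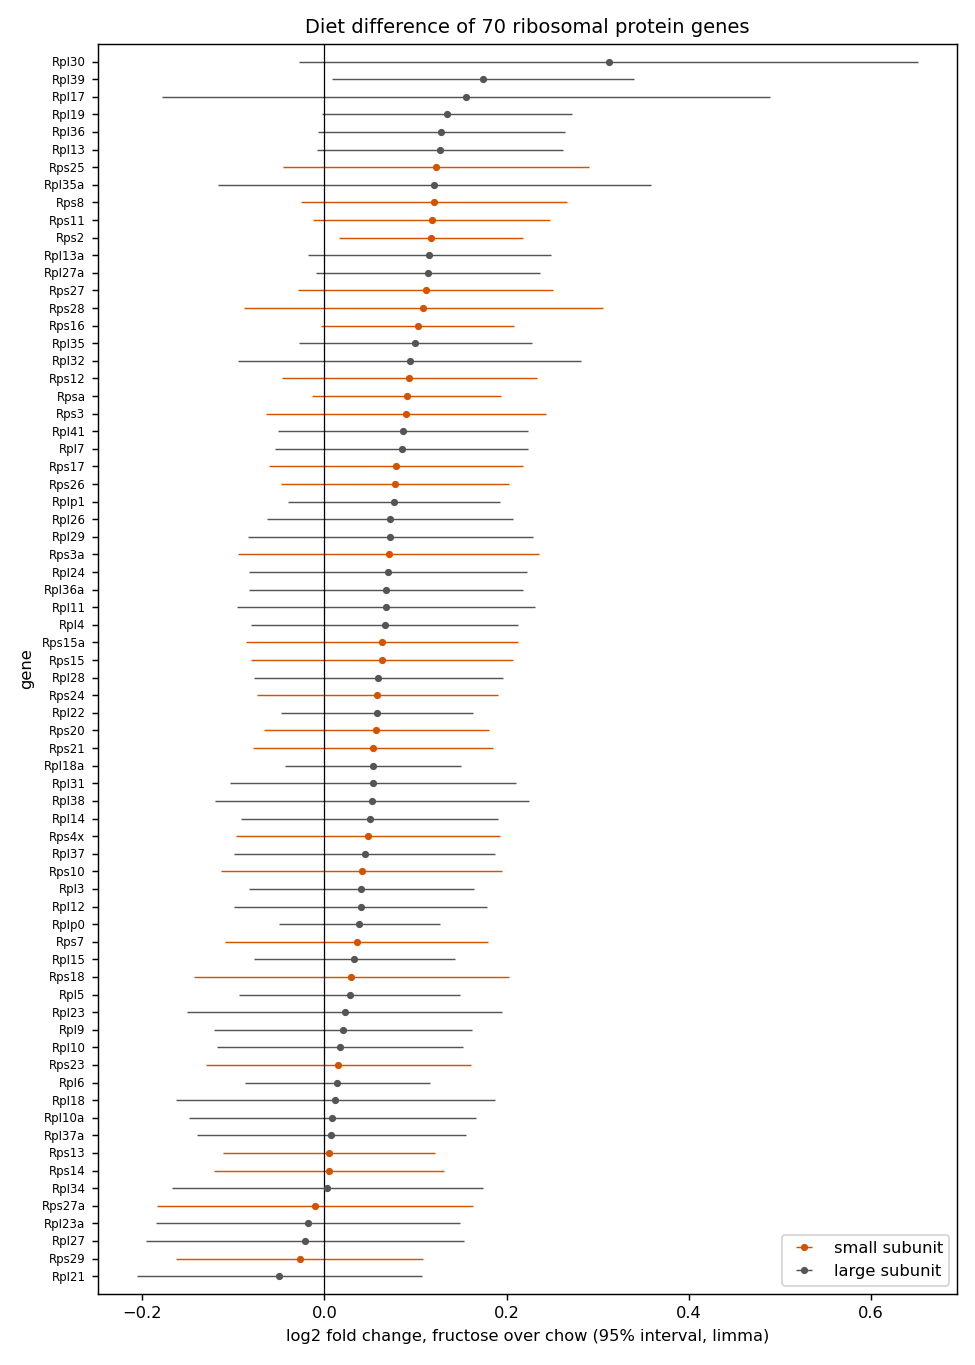
Log2 fold change of 70 of the 71 core ribosomal protein genes, fructose over chow, on the x axis with 95% intervals from limma, and genes in order of fold change on the y axis, coloured by subunit. Of the 70 points 65 lie above 0, the intervals of 68 genes include 0, and the intervals of Rpl30 and Rpl17 are the widest.

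In the small subunit, Rps2, near the entry of the mRNA channel, stood at 388, 415 and 440 FPKM in fructose rats (lowest, median and highest) and at 358, 389 and 415 FPKM in chow rats. The groups overlapped, with 3 of 6 fructose rats above every chow rat. Rps2 averaged 416 ± 20.4 FPKM on fructose and 384 ± 21.2 FPKM on chow (log2 fold change 0.12 ± 0.047, limma adjusted p = 0.189), with 6 of 6 fructose rats above the chow mean. Rps16 averaged 565 ± 15.1 FPKM on fructose and 527 ± 36.6 FPKM on chow, a log2 fold change of 0.10 ± 0.050. Its groups overlapped, with 3 of 6 fructose rats above every chow rat.

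Among other small subunit genes, Rpsa, also known as a laminin receptor, averaged 518 ± 32.2 FPKM on fructose and 486 ± 22.1 FPKM on chow. Rps27a, made as a fusion with ubiquitin, averaged 725 ± 80.6 FPKM on fructose and 729 ± 76.5 FPKM on chow. The 2 small subunit core genes with a fold change below 0 were Rps27a (-0.011 ± 0.081) and Rps29 (-0.027 ± 0.064).

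Among core genes of the large subunit the smallest p belonged to Rpl39, a short protein of the exit tunnel. It stood at 158, 187 and 206 FPKM in fructose rats and 139, 169 and 185 FPKM in chow rats (lowest, median and highest). The groups overlapped, though 4 of 6 fructose rats lay above every chow rat. The log2 fold change was 0.17 ± 0.078, with a limma adjusted p of 0.237. Rpl19 averaged 851 ± 66.1 FPKM on fructose and 776 ± 66.7 FPKM on chow, Rpl36 491 ± 35.4 FPKM on fructose and 449 ± 40.2 FPKM on chow, and Rpl13 520 ± 48.7 FPKM on fructose and 476 ± 31.6 FPKM on chow. The log2 fold changes of these 3 large subunit genes were 0.13 each, with limma adjusted p-values of 0.269 for Rpl19, 0.291 for Rpl36 and 0.297 for Rpl13. Fold changes below 0 were found in Rpl21 (-0.049 ± 0.073), Rpl23a (-0.018 ± 0.078) and Rpl27 (-0.022 ± 0.082). Rpl10a averaged 236 ± 23.0 FPKM on fructose and 234 ± 21.6 FPKM on chow.

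The stalk of the large subunit, which recruits translation factors, is built from Rplp0, Rplp1 and Rplp2. Rplp0 was the steadiest core gene, with a coefficient of variation of 4.07% over the 13 rats. It averaged 456 ± 11.2 FPKM on fructose and 445 ± 22.2 FPKM on chow (log2 fold change 0.038 ± 0.041). Rplp1 had a log2 fold change of 0.076 ± 0.054, and Rplp2 was listed at 2.15 ± 0.768 FPKM on fructose and 1.84 ± 0.844 FPKM on chow. Rplp2 was thus listed far below its partners, and it shares its 2-row form with the other low listings.

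Of those listings, Rpl7a was at 1.68 ± 0.345 FPKM on fructose and 1.21 ± 0.280 FPKM on chow, a log2 fold change of 0.35 ± 0.137 (limma adjusted p = 0.171), which was the largest of any member at this pseudocount. At a pseudocount of 0.1 it was 0.44 for Rpl7a and 0.47 for Rps19, against 0.11 for Rps19 at 0.5. With a pseudocount of 0.5, such low values understate a change, and 1 row holds only part of what is listed for the gene. Rpl8, a large subunit protein, was at 0.773 ± 0.359 FPKM on fructose and 0.938 ± 0.421 FPKM on chow. Rps9 of the small subunit was at 4.01 ± 0.644 FPKM on fructose and 3.97 ± 1.12 FPKM on chow. Rps19, the small subunit gene best known from Diamond-Blackfan anaemia in humans, was at 0.922 ± 0.512 FPKM on fructose and 0.940 ± 0.707 FPKM on chow, and was listed at 0 in 2 of the 7 chow rats.

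What separated rats was a level shared by nearly all core genes. The core level, the mean of log2(FPKM + 0.5) over the 71 genes, was 8.80, 8.94 and 9.08 in fructose rats and 8.76, 8.85 and 9.05 in chow rats (lowest, median and highest). It averaged 8.95 ± 0.11 on fructose and 8.88 ± 0.099 on chow, a difference of 0.066 against a spread of 0.32 over all rats. The diets overlapped, with 1 of 6 fructose rats above all chow rats and 4 of 6 above the chow mean. The highest rat of all was fructose replicate 2, the next chow replicate 6, and the lowest chow replicate 2. In fructose replicate 2 stood the highest value of 32 core genes, in chow replicate 6 that of 17 and in fructose replicate 4 that of 15. The lowest value was found in chow replicate 2 for 25 core genes, in fructose replicate 1 for 17, in chow replicate 1 for 14 and in chow replicate 3 for 12.

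**Figure D2:**
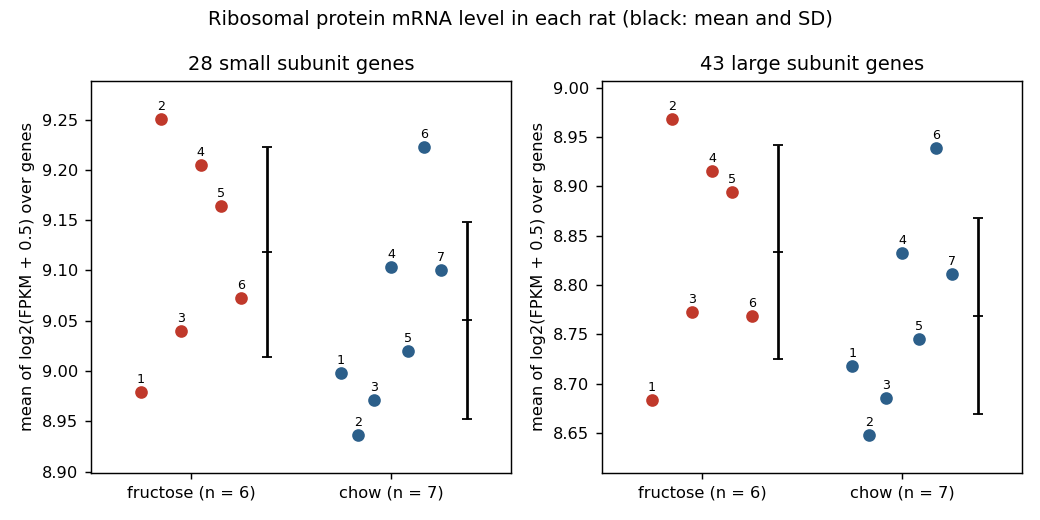
Mean of log2(FPKM + 0.5) over 28 small subunit genes (left) and 43 large subunit genes (right) in each rat, with replicate numbers above the points and the mean and SD of each diet in black. Rats keep nearly the same order in both subunits, and the diets overlap in both.

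The subunits moved as a pair. Small subunit core genes averaged 9.12 ± 0.10 on fructose and 9.05 ± 0.098 on chow, and large subunit core genes 8.83 ± 0.11 on fructose and 8.77 ± 0.10 on chow, on the log2 scale. As a description over the 13 rats, which share the library's scaling, the levels of the subunits had a Pearson r of 0.995 and a Spearman rho of 0.989, with r of 0.991 within fructose rats and 0.998 within chow rats. Among the 2485 pairs of core genes the median Pearson r was 0.71, and 0.73 after the mean of each diet was removed. The first principal component over the core genes held 63.0% of their variance and all 71 genes had the same sign on it, while the next held 12.2%. For comparison, the median r between pairs was 0.29 in 66 mitochondrial ribosomal protein genes and 0.47 in 79 respiratory chain genes. It was 0.05 in 52 genes with initiation factor symbols (Eif). It was higher than in the core in some marker lists, at 0.93 in 4 oligodendrocyte and 0.96 in 10 thalamus markers. On chow the mean log2 level was 5.30 in the mitochondrial ribosomal and 5.47 in the initiation list, below the core. The part of level in these r values was not tested.

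Members differed in how closely they followed the core. Rps12, of the small subunit, followed it most closely, with an r of 0.98 against the mean of the other core genes over 13 rats. It stood at 617, 707 and 781 FPKM in fructose rats and 596, 641 and 741 FPKM in chow rats. Its annotated start window, printed above, holds no run of C and T longer than 3. The median r was 0.85 over the core, 45 of 71 genes were above 0.8, and 3 were below 0.5, namely Rpl39 (0.14), Rpl17 (0.17) and Rps2 (0.40). In core genes with a run of at least 8 C or T at the start, 40 in number, the median of this r was 0.86, and in the 17 with a shorter run 0.84.

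**Figure D3:**
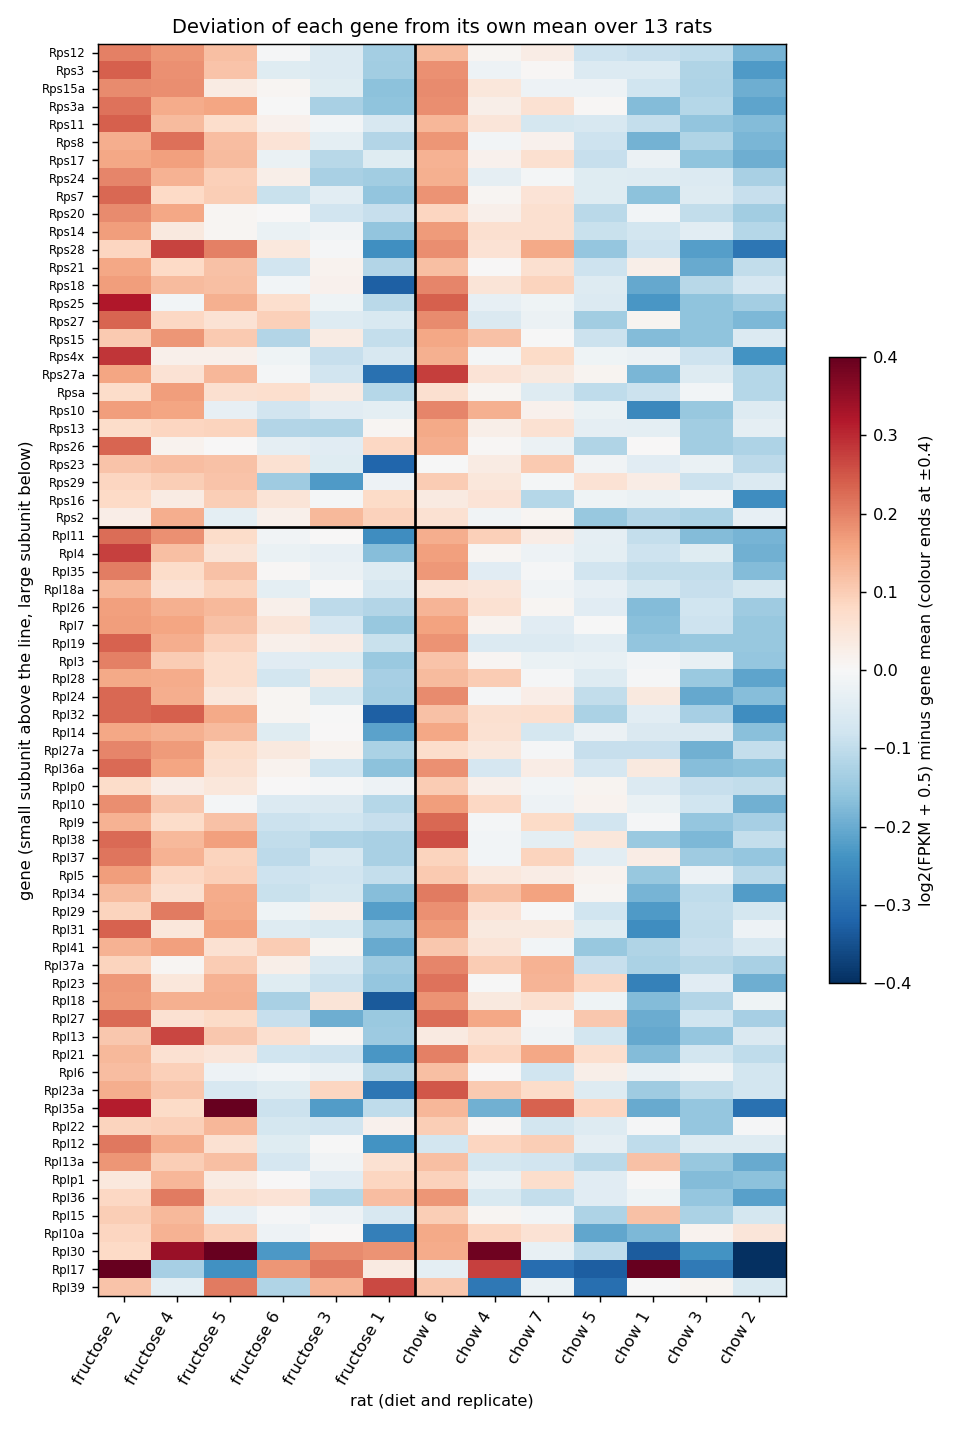
Deviation of each of 70 of the 71 core genes (rows, small subunit above) from its own mean of log2(FPKM + 0.5) over 13 rats (columns, fructose left, chow right, each in order of core level). Whole columns share a colour, red in fructose replicate 2 and chow replicate 6 and blue in chow replicate 2, while Rpl30, Rpl17 and Rpl39 at the bottom have the strongest colours or depart from the columns.

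Rpl17, a large subunit protein at the rim of the exit tunnel, varied on its own. It stood at 429, 547 and 694 FPKM in fructose rats and 383, 417 and 760 FPKM in chow rats (lowest, median and highest). The highest value was in chow replicate 1, a rat with a low core level, and the next in fructose replicate 2. Its coefficient of variation was 23.0%, the largest in the core, where the median was 8.66%. Rpl17 also had the largest weight, in absolute size 0.71, on the second principal component of the core, given here with a negative sign (-0.71). Rpl30, of the large subunit, was next in variation at 22.3%, with 360, 479 and 574 FPKM in fructose rats and 235, 393 and 552 FPKM in chow rats. Neither gene passed the test for a difference between the diets (limma adjusted p = 0.659 for Rpl17 and 0.309 for Rpl30).

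Taken relative to the mean level of all members in each rat, 0 of 80 members passed an adjusted p under 0.05 by limma, and 1 stood at an unadjusted p under 0.05. This was Rpl21 of the large subunit, lower on fructose by a relative log2 change of -0.12 ± 0.047 (limma adjusted p = 0.182). On that scale 35 of 80 members were above 0, but the members' mean change is 0 there by construction.

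The paralogues differed in level far more than by diet. Rps27l, which responds to p53 in human and mouse cells, stood at 16.5, 20.9 and 26.0 FPKM in fructose rats and 15.8, 18.2 and 22.8 FPKM in chow rats. It made up 2.93 ± 0.421% of the sum with Rps27 on fructose and 2.89 ± 0.415% on chow. Rpl22l1, by contrast, was as abundant as its partner, at 153 ± 24.3 FPKM on fructose and 147 ± 19.8 FPKM on chow, with Rpl22 at 156 ± 9.62 FPKM on fructose and 149 ± 8.07 FPKM on chow. Its share of the pair was 49.3 ± 2.78% on fructose and 49.4 ± 2.93% on chow. Rpl39l, known from male germ cells of the mouse, was at 2.84 ± 1.36 FPKM on fructose and 2.71 ± 0.822 FPKM on chow, 1.55 ± 0.779% of its pair on fructose and 1.62 ± 0.412% on chow. Rps4y2 was at 4.62 ± 0.830 FPKM on fructose and 4.67 ± 1.52 FPKM on chow, 1.39 ± 0.271% of its pair with Rps4x on fructose and 1.46 ± 0.503% on chow. Reads can be shared within such pairs, so the split is uncertain.

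By exact two-sided permutation tests over 1716 divisions of the rats, none of 5 paralogue ratios differed between diets at an adjusted p under 0.05. Adjustment was over the 5 pairs. The nearest was Rpl36al over Rpl36a, with a log2 ratio of 0.61 ± 0.12 on fructose and 0.73 ± 0.12 on chow, a difference of -0.12 (exact permutation p = 0.0880, adjusted p = 0.440), and 1 of 6 fructose rats above the chow mean. The other 4 differences were 0.017 for Rps27l over Rps27, -0.00068 for Rpl22l1 over Rpl22, -0.23 for Rpl39l over Rpl39 and -0.020 for Rps4y2 over Rps4x, each with an exact permutation adjusted p of 0.993. In levels, Rpl22l1 followed the core level with an r of 0.82, Rps27l with 0.38, Rpl39l with 0.27 and Rps4y2 with -0.22.

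**Figure D4:**
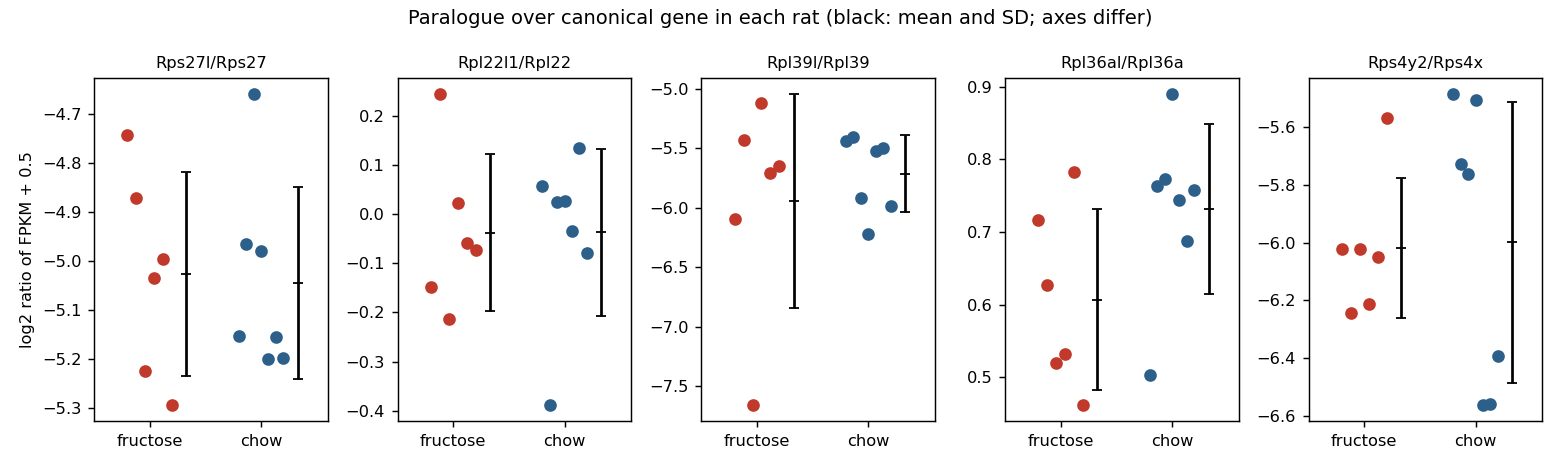
Log2 ratio of each paralogue over its canonical gene, on log2(FPKM + 0.5) values, in each rat, fructose left and chow right in each panel, with the mean and SD in black and a separate y axis per pair. Rpl22l1 and Rpl22 lie near equality, Rps27l, Rpl39l and Rps4y2 lie 5 to 6 log2 units below their partners on average, and the diets overlap in every pair.

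Genes of the ribosome that the symbol rule leaves out were about as abundant. Fau, which encodes a fusion with the small subunit protein S30, averaged 958 ± 78.9 FPKM on fructose and 961 ± 49.2 FPKM on chow. Gnb2l1, the older symbol of the ribosomal scaffold Rack1, averaged 288 ± 8.43 FPKM on fructose and 281 ± 15.9 FPKM on chow. Rpl36al averaged 233 ± 29.7 FPKM on fructose and 242 ± 21.5 FPKM on chow. Of these 3 genes 0 passed by limma, with adjusted p-values of 0.962 for Fau, 0.719 for Gnb2l1 and 0.764 for Rpl36al, and 0 were at an unadjusted p under 0.05. The r with the core level was 0.72 for Fau, 0.87 for Gnb2l1 and 0.73 for Rpl36al.

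Around the ribosome, few genes passed. For the lists in this and the next paragraph, the shares over all rows tested were 3.94% called by limma, 1.66% higher and 2.27% lower. At an unadjusted p under 0.05 by limma they were 19.2%, 8.59% higher and 10.6% lower. Of 66 mitochondrial ribosomal protein genes 0 passed by limma and 4 stood at an unadjusted p under 0.05, with a median log2 fold change of -0.0021 and 33 above 0. The smallest p belonged to Mrpl52 (0.17 ± 0.065) and Mrps18a (-0.23 ± 0.087). The initiation factor list was taken by symbol, Eif followed by a number, so it also holds genes with other roles. At an unadjusted p under 0.05 by limma 7 of its 52 genes were lower and 1, Eif2ak2, was higher. Eif5a and Eif4e were among the 7 lower and are counted again in lists of the next paragraph. Of the 52 genes 1 fell and 0 rose by limma call, with a median of -0.028 and 18 above 0. The gene that fell was Eif2s1, the alpha subunit of eIF2 that carries the stress phosphorylation site, at 38.5 ± 0.708 FPKM on fructose and 43.4 ± 2.28 FPKM on chow (-0.17 ± 0.043, limma adjusted p = 0.0402). Eif2ak2, the kinase PKR that phosphorylates it and is induced by interferon, was at 11.1 ± 1.29 FPKM on fructose and 8.66 ± 1.26 FPKM on chow (0.34 ± 0.102, limma adjusted p = 0.0727).

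Of 11 translation elongation genes 0 passed by limma and 1 stood at an unadjusted p under 0.05, Eif5a (-0.11 ± 0.041), while Eef1g was at 0.10 ± 0.049. Of 50 ribosome biogenesis genes 1 fell and 0 rose (median -0.012), the call being Utp18, a small subunit processing factor, at 11.1 ± 0.484 FPKM on fructose and 13.2 ± 0.956 FPKM on chow (-0.24 ± 0.059, limma adjusted p = 0.0391), and Imp3 stood at 0.13 ± 0.063. Of 17 genes of growth control, 0 passed by limma. At an unadjusted p under 0.05 stood 3, all lower, against 19.2% of all rows in either direction and 10.6% lower. Among these 3 were Rheb, the GTPase that activates mTOR (-0.14 ± 0.048), and Eif4e, the cap-binding factor (-0.13 ± 0.046). Of 79 respiratory chain genes 0 passed by limma and 5 stood at an unadjusted p under 0.05, with a median of -0.035 and 17 above 0. Cox6a2 was at 0.93 ± 0.297 and Ndufa7 at -0.13 ± 0.047.

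The core level moved with features of the whole table. Over the 13 rats its Pearson r with the median FPKM of all rows was -0.57 (Spearman rho -0.58), and -0.91 within fructose and -0.92 within chow rats. Without the 2 rats farthest in that median, r was -0.51. The median FPKM of all rows was 5.71 ± 0.141 on fructose and 5.56 ± 0.121 on chow. With the mean log2 level of mitochondrial ribosomal proteins r was 0.85 (rho 0.82, 0.94 within fructose and 0.89 within chow rats, and 0.80 without the 2 farthest rats), and with respiratory chain genes 0.65 (rho 0.63, 0.63 within fructose and 0.85 within chow rats, and 0.65). With initiation factors it was 0.19 (rho 0.18, 0.42 within fructose and 0.65 within chow rats, and 0.16). With the growth control genes it was -0.73 (rho -0.62, -0.78 within fructose and -0.70 within chow rats, and -0.55), with the biogenesis genes 0.74 (rho 0.70, 0.94 within fructose and 0.68 within chow rats, and 0.74) and with the elongation genes 0.78 (rho 0.77, 0.73 within fructose and 0.90 within chow rats, and 0.76). These are descriptions of 13 rats with no p, from 21 such relations computed, and because FPKM are shares of a library, levels of abundant genes and of the rest are tied to each other. The part of library scaling in the shared level was not tested.

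**Figure D5:**
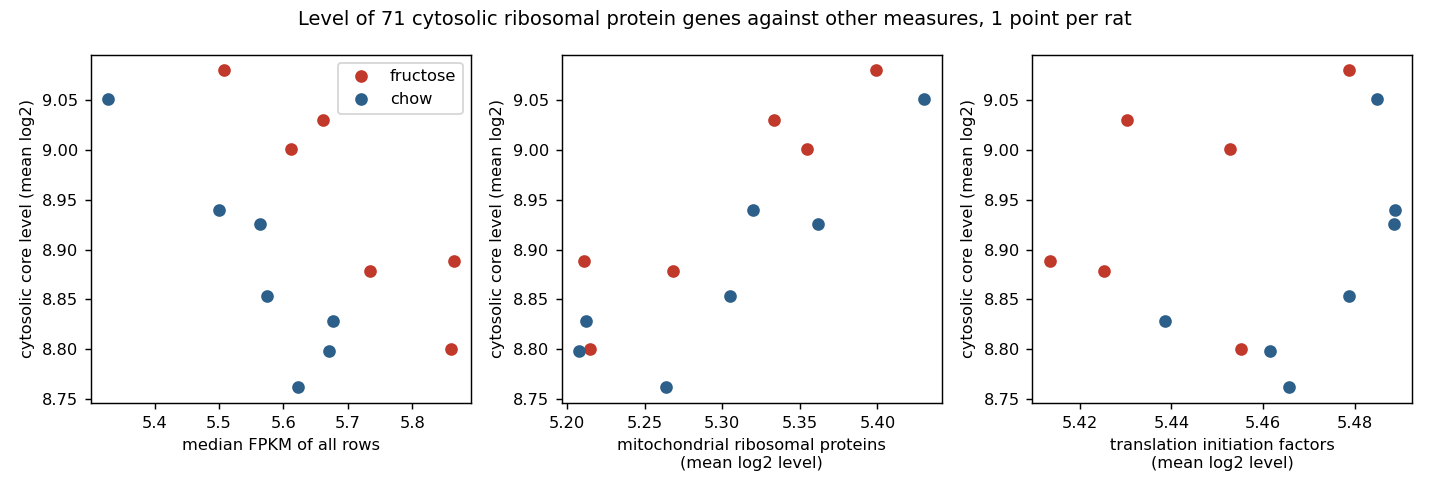
Core level (mean of log2(FPKM + 0.5) over 71 genes) on the y axis, 1 point per rat. The x axes give the median FPKM of all rows, the level of 66 mitochondrial ribosomal protein genes and the level of 52 initiation factor (Eif) genes. The core level falls with the median within each diet and climbs with the mitochondrial ribosomal proteins, while the relation to the initiation factors is weaker over all 13 rats than within either diet.

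The genes most like the members outside the rule, by Pearson r with the mean level of the 80 members over 13 rats, were Tra2a (0.93), a splicing factor, Mrpl53 (0.92), a mitochondrial ribosomal protein, LOC687575 (0.91), Srsf11 (0.91), a splicing factor, and Psmc2 (0.90), a proteasome subunit. Their log2 fold changes between diets lay between 0.043 and 0.11, and none passed by limma.

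The dissected tissue differed between diets in its markers. Hypothalamic genes were present, with Pmch, the precursor of melanin-concentrating hormone, at 3494 ± 1782 FPKM on fructose and 5107 ± 1083 FPKM on chow. Hcrt, the orexin precursor, was at 527 ± 294 FPKM on fructose and 700 ± 171 FPKM on chow, whereas Agrp averaged 0.469 FPKM on fructose and 0.724 FPKM on chow. Of the 10 hypothalamus markers 7 had a log2 fold change below 0 and 3 above 0. Means were higher on fructose for Pomc (6.97 against 4.39 FPKM on chow), Nkx2-1 (10.2 against 7.58 FPKM) and Sim1 (1.29 against 1.15 FPKM). Of 10 thalamus markers 8 fell and 1 rose, with summed levels of 492 to 830 FPKM on fructose and 571 to 1228 FPKM on chow. Of 6 dopamine neuron markers 6 rose (summed 180 to 522 FPKM on fructose and 70.7 to 96.8 FPKM on chow), of 3 tested blood markers 3 rose (summed 352 to 1530 FPKM on fructose and 175 to 422 FPKM on chow), of 5 tested meningeal markers 5 rose (summed 26.8 to 73.3 FPKM on fructose and 18.6 to 30.7 FPKM on chow), and of 4 astrocyte markers 2 rose. Meningeal markers Col1a2 and Ogn were listed at 0 in all rats, and of 5 choroid plexus markers 2 were tested, 0 passed by limma and 1 stood at an unadjusted p under 0.05. Neuron, oligodendrocyte, microglia and hypothalamus markers gave 0 calls by limma among 24 tested, with 5 at an unadjusted p under 0.05. Of all rows tested 3.94% were called and 19.2% stood at an unadjusted p under 0.05 by limma. All 5 neuron markers had a log2 fold change below 0 (median -0.21). Their mean level was above the chow mean in 0 of 6 fructose rats. All 4 oligodendrocyte markers were above 0 (median 0.18), with 3 of 6 fructose rats above every chow rat in mean level. Of 5 microglia markers 3 were above 0, and of all rows tested 50.3%. The r of the core level with the thalamus markers was -0.46 over 13 rats (rho -0.36), and 0.01 without the 2 rats farthest in those markers. It was -0.56 within fructose and -0.037 within chow rats. With the meningeal markers it was -0.049 over all rats (rho 0.049, and 0.26), -0.84 within fructose and -0.17 within chow rats. With the astrocyte markers it was -0.12 over all rats (rho 0.027, and 0.15), -0.66 within fructose and -0.51 within chow rats. Dopamine neuron markers gave 0.31 (rho 0.31, and 0.51), -0.12 within fructose and 0.14 within chow rats. Blood markers gave 0.33 (rho 0.45, and 0.31), -0.13 within fructose and 0.56 within chow rats. The largest r of a marker list was that of oligodendrocytes, 0.50 (rho 0.43, and 0.26), 0.30 within fructose and 0.55 within chow rats. Neuron markers gave -0.44 (rho -0.36, and -0.11), -0.25 within fructose and -0.36 within chow rats. Over all rats microglia markers gave 0.28, hypothalamus markers 0.13 and choroid plexus markers 0.053. The part of these markers in the ribosomal level was not tested.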

How the data were processed

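RNA from the whole hypothalamus of 13 rats was sequenced from 1 µg of total RNA each, per the labels' protocols. The deposited values are FPKM made by the authors, held in a single table for all rats. The submitters' processing notes name STAR (version 2.3.0e), Cufflinks (version 2.1.1), Cuffdiff and the build rn5. How strand, annotation and library scaling were handled is not stated there or in the labels. Depth is unknown, so precision rests on the spread between rats.

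Columns were matched by name and groups taken from the labels. Replicate numbers follow accession order and pair nothing. Values were analysed as log2(FPKM + 0.5). Rows with a mean of at least 0.5 FPKM, 11837 of 17366, were tested with limma 3.58.1 in R 4.3.3 (two-sided, variance moderated along expression level, Benjamini-Hochberg adjustment over all rows tested), and an adjusted p under 0.05 was a call. Fold changes on this scale understate those of low genes. Exact two-sided permutation tests used all 1716 divisions of the rats. The procedure was tested on simulated data.

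Members, lists and named genes were chosen with earlier results of these data known. Named are the members with the 8 smallest p in each direction (7 were lower), the 5 highest and 5 lowest, the paralogue pairs, the stalk, Rpsa, Rps27a and Rpl10a, and the 2 leading genes of each comparison list. Rpl17, Rpl30, Rps12 and Rpl3l were chosen after their values were seen. Other settings tried were a pseudocount of 0.1 or 1, a minimum of 2 FPKM or none, quantile and median-ratio scaling, array weights, robust moderation, the permutation test, an adjusted p under 0.1, values relative to the members' mean, and leaving out each rat with the filter kept. Median-ratio factors lay between 1.0004 and 1.0072. A comparison by transcript length was not made, and some results are not reported here.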

Additional observations from a re-analysis of the deposited data

Results flagged for a closer look

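Among 78 groups of values examined, 5 held a rat far from the others of its diet, where chance gives about 1 in 20 groups. Rps4x stood at 394 FPKM in fructose replicate 2, with the other fructose rats between 302 and 328 FPKM. Rpl19 stood at 913 FPKM in chow replicate 6, with the other chow rats between 723 and 784 FPKM. Both are the rats with the highest core level of their diet. Rps4y2 stood at 6.23 FPKM in fructose replicate 6, with the other fructose rats between 3.92 and 4.70 FPKM, and its log2 ratio to Rps4x there was -5.57, with the others between -6.24 and -6.02. The log2 ratio of Rpl22l1 to Rpl22 was -0.39 in chow replicate 2, with the other chow rats between -0.08 and 0.14. None of these values was followed up by a test.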

How the results depend on the processing

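No member was called lower under any setting tried. The number called higher was 0 and became 1 with array weights and at an adjusted p under 0.1, and it ran between 0 and 1 with 1 rat left out, the 1 being without chow replicate 1. The cause was not tested. The median log2 fold change of the members was above 0 under every other setting tried except relative to their own mean. There it was -0.0065, but that scale sets the members' mean change to 0. The median was 0.031 to 0.097 with 1 rat left out and 0.080 with quantile normalization. Members at an unadjusted p under 0.05, 4 by limma, were 22 with quantile normalization, 10 with array weights, 17 without chow replicate 6 and 11 without fructose replicate 1, and lay between 2 and 6 without any other single rat. The share of all rows at that level under each of these settings is not given. All rows called, 466 in all rats, ran between 83 and 857 with 1 rat left out and were 1019 with array weights, 915 at an adjusted p under 0.1, 308 without a filter, 173 relative to the members' mean and 0 by the adjusted permutation test. For the 71 core genes alone, a choice added after the data were seen, the median was 0.063 with 0 limma calls, and 3 genes had an unadjusted p under 0.05.

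Signs of small differences turned without any call. With quantile normalization these were Rps27a at 0.0078, Rps29 at 0.039, Rps4y2 at -0.020 and the Rpl22l1 to Rpl22 ratio at 0.00016, and with array weights Rpl23a at 0.0098. Relative to the members' mean they were Rpl10a -0.059, Rpl22 -0.010, Rpl22l1 -0.011, Rpl36a -0.000092, Rpl37 -0.024, Rpl37a -0.060, Rplp0 -0.030, Rps4x -0.020 and Rps4y2 -0.040. That scale takes the same 0.068, the diet difference of the members' mean level, from every fold change. A positive fold change smaller than that therefore turns by arithmetic alone. With 1 rat left out the log2 fold change ran from -0.026 to 0.064 for Rpl10a, -0.011 to 0.11 for Rpl22l1, -0.049 to 0.038 for Rpl23a, -0.069 to 0.015 for Rpl27, -0.013 to 0.041 for Rpl37a, -0.20 to 0.28 for Rpl39l, -0.11 to 0.25 for Rps19, -0.043 to 0.048 for Rps27a, -0.053 to 0.015 for Rps29, -0.0044 to 0.075 for Rps4x and -0.065 to 0.11 for Rps4y2. The differences of the paralogue ratios ran from -0.059 to 0.034 for Rpl22l1 to Rpl22, -0.40 to 0.11 for Rpl39l to Rpl39, -0.040 to 0.081 for Rps27l to Rps27 and -0.11 to 0.066 for Rps4y2 to Rps4x. No paired analysis was possible because the replicate numbers follow accession order and pair no rats across diets.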
